A study of Homo sapiens with 30 samples.

Results

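The 2 arrays labelled RAF T0 were compared with the 2 arrays labelled replicative 792 h, over all 52329 features of the array. These 4 arrays are part of a series of 30, in 15 labelled groups of 2, that measured total RNA of WI-38, a human diploid fibroblast line from lung, on Affymetrix HTA 2.0 arrays. The pair was chosen with its levels of mitotic genes and of IL1A and IL1B already known: both labels carry low mitotic levels, 1 of them with and 1 without high IL1A and IL1B. The levels of the cell cycle genes and of IL1A and IL1B are therefore given as a description, with no test.

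Per the labels, growth was in 3% oxygen with 5% carbon dioxide. The RAF-labelled cells carried a doxycycline-inducible RAF oncogene, for which the protocol gives 100 ng/ml doxycycline, and T0 is the first time of that course. The replicative-labelled cells were driven to proliferative exhaustion, for which the protocol gives 21% oxygen, and 792 h is the sixth of the 9 times of that course. The protocol fields are the same on every array and do not give oxygen or doxycycline per time. The groups RAF 12 h and RAF 24 h, replicative 1008 h and replicative 1368 h, which follow in the courses, were used below as comparisons. Nothing in the labels says whether the RAF line was 1 clone. The submitters' design text calls the RAF replicates biological; it says nothing of the kind for the replicative arrays, where a p-value may measure technical spread only. The RAF construct, oxygen, culture time and course cannot be told apart in these comparisons.

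Senescent cells have left the cell cycle for good, with inhibitors of cyclin-dependent kinases such as CDKN1A and CDKN2A holding the block, while quiescent or crowded fibroblasts stop dividing reversibly. Many senescent cells also release cytokines, chemokines and matrix proteases, a secretory programme in which interleukin-1 acts as an upstream signal through NF-kB. RAF kinases pass the signal of RAS to MEK and ERK, and ERK in turn induces its own inhibitors, the dual-specificity phosphatases and Sprouty proteins.

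The labels were set against these genes before any comparison. A list's level is the mean over its members of the log2 intensity minus that gene's mean over the 30 arrays. The list of ERK pathway output and feedback had its lowest level of the 15 groups under the RAF T0 label, -0.45 ± 0.00 (SD, n = 2), against 0.71 ± 0.00 under the replicative 792 h label. The 5 groups above 0 on this list were all replicative-labelled: T0 and the 4 latest times, from 792 h to 2112 h. DUSP6, a phosphatase that inactivates ERK, lay between 7.80 and 8.55 on the log2 scale in the 6 RAF-labelled groups between 9.80 and 10.85 in those 5 replicative-labelled groups, and between 8.15 and 8.50 in the other 4. These levels go against the course names on the labels, so groups are called by their labels throughout. The RAF construct itself was not checked here. ARAF, a kinase of the RAF family, stood at 8.2 and 8.3 under RAF T0 and at 8.5 and 8.5 under 792 h.

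The other array-wide facts were as follows. Every array had a median of 5.5, and the SD over features was 1.66 and 1.65 on the RAF T0 arrays and 1.72 on both 792 h arrays. Partners correlated at 0.9951 under RAF T0 and 0.9944 under 792 h across features, against 0.9319 to 0.9345 between the groups. The first principal component (64.2% of the variance) put 12 replicative-labelled arrays, those of T0 and of the 5 times from 624 h on, at 25.24 or above and the other 18 at -37.23 or below. The fibroblast marker list stood at 0.14 ± 0.04 (SD, n = 2) under RAF T0 and at -0.50 ± 0.02 under 792 h, the lowest of the 15 groups. Its member COL1A1, the main chain of type I collagen, was bright on all 4 arrays, at 10.1 and 10.3 under RAF T0 and 10.8 and 10.7 under 792 h, while others such as DCN, described below, were much lower under 792 h.

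Across the array, the groups differed at a large share of features. With limma and Benjamini-Hochberg adjustment over all features, 31612 features (60.4%) passed an adjusted p of 0.05, of which 15985 (30.5% of all features) were higher under RAF T0 and 15627 (29.9%) lower. The median difference was 0 and the median size 0.3 log2 units, with a median SE of 0.09. At 2-fold or more, 4344 features (8.3%) passed, 2490 higher (4.76%) and 1854 lower (3.54%). Since the pair was chosen on part of this contrast, its calls describe these 4 arrays and nothing more is read from them. "Passed" below means this test, and all differences are RAF T0 minus replicative 792 h in log2 units. Counts of list members higher or lower in the pair stand against these shares, 30.5% and 29.9% of all features. The deposited values come in steps of 0.1, so a difference of 1 or 2 steps is coarse, and no background call could be made for dim genes.

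**Figure D1:**
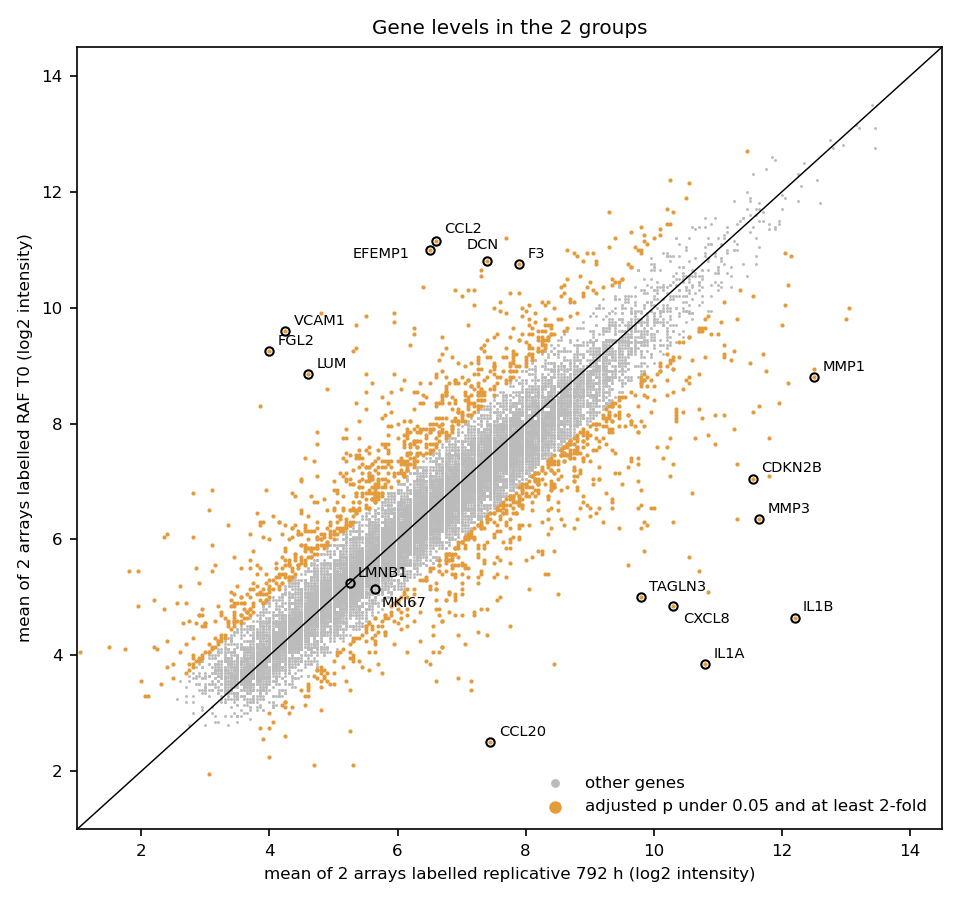
Mean log2 intensity of each of 19912 genes on the 2 arrays labelled replicative 792 h (horizontal axis) and the 2 arrays labelled RAF T0 (vertical axis). Orange points passed an adjusted p of 0.05 with at least 2-fold, which for IL1A, IL1B and the cell cycle genes is a description only; the line marks equal levels. IL1A, IL1B, CXCL8 and MMP3 lie far below the line, VCAM1, FGL2, CCL2 and LUM far above it, and LMNB1 on it.

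Genes of G2 and mitosis were low as a list under both labels. The G2 and mitosis list stood at -1.34 ± 0.09 (SD, n = 2) under RAF T0, the lowest of the 15 groups, and at -1.07 ± 0.02 under 792 h, the third lowest after replicative 1008 h. MKI67, the proliferation marker Ki-67, read 5.1 and 5.2 under RAF T0 and 5.7 and 5.6 under 792 h, where the groups at the top of the range, RAF 12 h and replicative T0, had means of 9.30. TOP2A, the topoisomerase that untangles sister chromatids, read 4.7 and 4.9 against 5.6 and 5.5. Both genes had their lowest level of the series under RAF T0. CDK1, the kinase that drives entry into mitosis, read 3.4 and 3.8 against 3.7 and 3.7, and its groups overlapped. CCNB1, the cyclin that partners CDK1, ran the other way, at 6.3 and 6.4 against 5.8 and 5.9. The low mitotic level was thus shared, and the order of the labels depended on the gene.

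The 29 G2 and mitosis genes measured differed by -1.1 to 0.5, with a median of -0.25, 21 of them below 0 and 8 above, and AURKA was the 1 gene that reached 2-fold. AURKA, a kinase of the spindle poles, read 6.4 and 6.3 against 7.5 and 7.4. The 28 DNA replication genes differed by -1.15 to 0.8, with a median of -0.15. Their list level was -0.52 under RAF T0, the lowest of the 15 groups, and -0.31 under 792 h, at rank 6 from the lowest. MCM7 and MCM6, subunits of the same replicative helicase, lay at opposite ends of that range: MCM7 read 6.6 and 6.7 against 7.8 and 7.8, and MCM6 read 6.0 and 6.0 against 5.3 and 5.1. The 11 replication-dependent histones differed by -0.45 to 2.0, with 2 below 0 and 8 above. Their list level was -0.34 under RAF T0, at rank 6 from the lowest, and -0.73 under 792 h. The linker histone gene H1-2 read 8.4 and 8.3 under RAF T0 and 6.3 and 6.4 under 792 h. Its mean under RAF T0, 8.35, was the highest of the 15 groups, so not every cell cycle gene was low there.

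**Figure D2:**
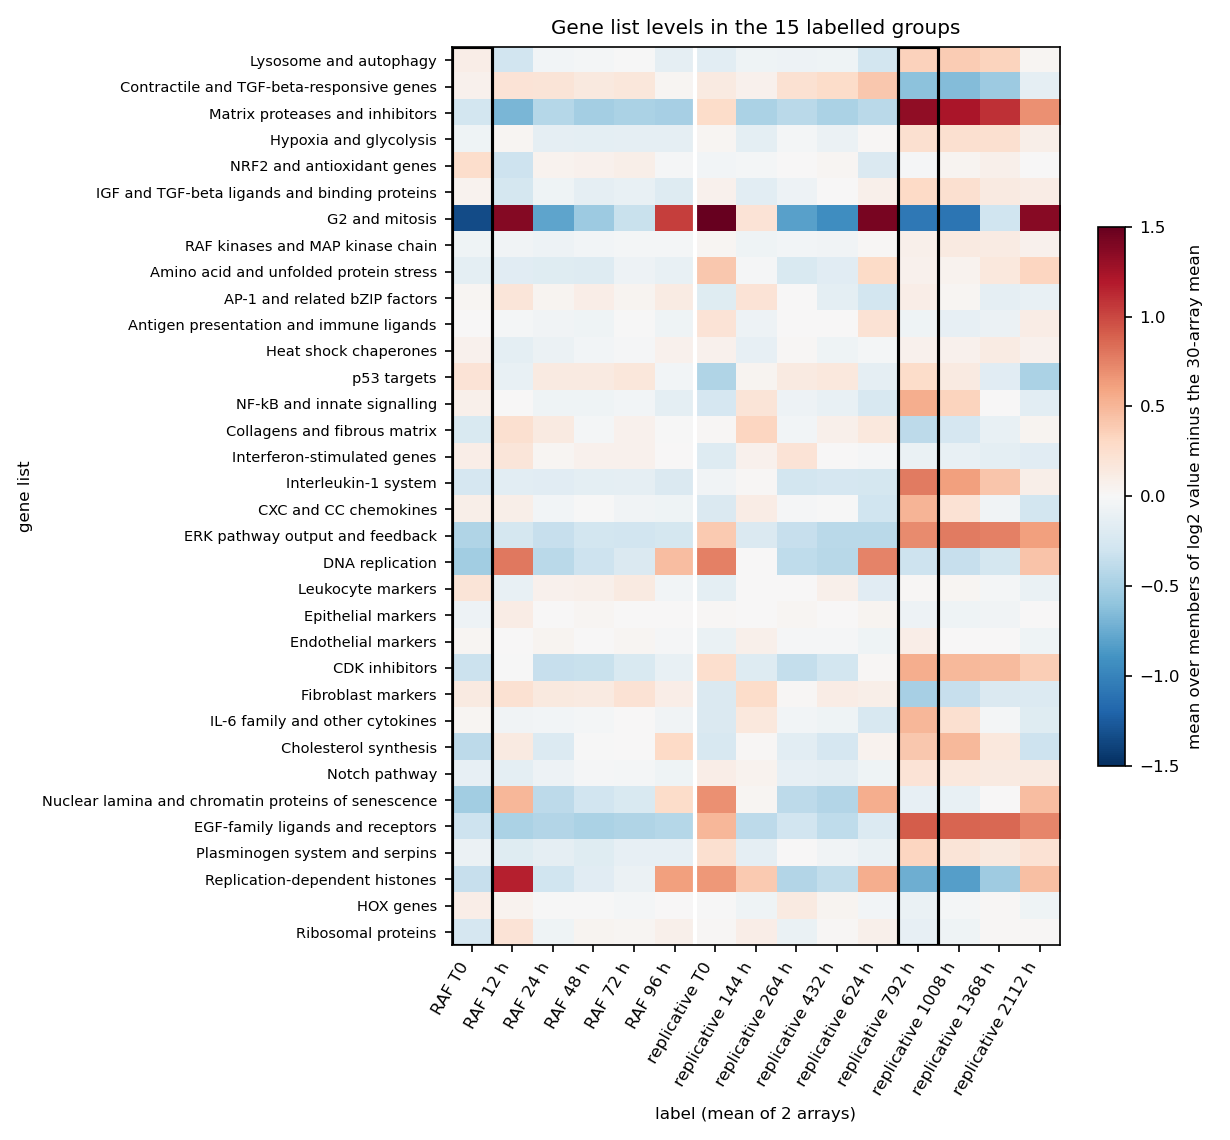
Level of each gene list (rows) in the 15 labelled groups (columns, mean of 2 arrays), as the mean over members of the log2 intensity minus the 30-array mean; red is above and blue below that mean, and colours saturate at 1.5 in either direction. The boxed columns are RAF T0 and replicative 792 h: the G2 and mitosis row is blue in both, and the rows for matrix proteases, EGF-family ligands, ERK output and the interleukin-1 system are red only in the second of them. The interleukin-1 row includes IL1A and IL1B, by which the pair was chosen, so its colour and that of the mitosis row are a description only. Its other 15 genes had a median difference of -0.20 between the 2 boxed groups.

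IL1A and IL1B, the genes by which the pair was chosen, were far apart. IL1B, one of the 2 agonist ligands, read 4.6 and 4.7 under RAF T0 and 12.2 and 12.2 under 792 h. IL1A, the other agonist, read 3.9 and 3.8 against 10.8 and 10.8. Both had their highest level of the 15 groups under 792 h, and IL1B followed at 11.75 under replicative 1008 h, 10.80 under 1368 h, 8.10 under 2112 h and 6.70 under replicative T0, with every other group at 5.50 or below. The other members of the system were split. IL1RN, the natural antagonist, read 4.0 and 4.0 against 4.0 and 4.1, and did not pass. IL1R1, the signalling receptor, was higher under RAF T0, at 7.7 and 7.7 against 7.0 and 7.0. CASP1, the protease that matures the IL1B precursor, was higher there too, at 6.2 and 6.2 against 4.3 and 4.4. IRAK2, a kinase that relays the receptor's signal, was lower, at 6.7 and 6.9 against 9.2 and 9.3. Over the 15 measured genes of the list other than IL1A and IL1B, 3 were higher and 8 lower, 4 did not pass, and the median difference was -0.20.

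Other cytokines and chemokines were split between the labels. CXCL8, the neutrophil attractant interleukin-8, read 4.9 and 4.8 under RAF T0 and 10.3 and 10.3 under 792 h. CCL20, the ligand of the receptor CCR6, read 2.5 and 2.5, at the dim end of the array, against 7.4 and 7.5. CCL2, the main attractant of monocytes, ran the opposite way, at 11.1 and 11.2 against 6.6 and 6.6. The secreted chemokines were thus divided by member: 8 of 17 measured were higher under RAF T0, 7 lower and 2 did not pass, and CCL2 was the 1 gene higher at 2-fold, against 4 lower. CCL2 was the highest of all groups under RAF T0 and lay at 10.00 to 10.40 in the other RAF-labelled groups and at 10.55 to 10.75 in replicative 144 h, 264 h and 432 h, against 6.6 to 8.3 at replicative T0 and the 5 replicative times from 624 h on. CXCL1, another neutrophil attractant, read 5.6 and 5.2 against 6.8 and 7.2.

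Of 16 genes in the list of the IL-6 family and other cytokines, 7 were higher, 7 lower and 2 did not pass. IL11, a member of the family that acts on fibroblasts and stroma, read 6.6 and 6.6 under RAF T0 and 9.9 and 9.7 under 792 h. CSF3, the granulocyte colony-stimulating factor, read 6.5 and 6.4 against 9.0 and 9.2. LIF, which signals through the same shared receptor chain as IL6, read 6.7 and 6.7 against 9.3 and 9.4, while its receptor LIFR was higher under RAF T0, at 6.9 and 6.7 against 5.4 and 5.3. IL6 itself, often used to mark the secretory programme, differed by less, at 6.5 and 6.3 against 7.2 and 7.4. Replicative 144 h had the same mean as 792 h, 7.30, and RAF 12 h a mean of 7.0, so this gene did not separate 792 h from the other groups.

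Promoters are shown for 4 of the genes at the extremes of this contrast, 3 higher under 792 h and 1 under RAF T0, because they carry matches to the binding motifs of AP-1 and NF-kB. Each is the 150 bases upstream of the RefSeq gene start on GRCh38.p14, written 5′ to 3′ on the gene's strand, with the matches in capitals. AP-1 was searched as TGANTCA and NF-kB as a run of 10 bases that starts with GGG, ends with CC and has T as the sixth base, with any base elsewhere, on both strands; of 27305 promoters, 6.6% held the first and 19.3% the second within 250 bases upstream. The IL1A promoter (chr2:112784494-112784643, minus strand) has an AP-1 match that begins 12 bases upstream, and the CXCL8 promoter (chr4:73740419-73740568, plus strand) one that begins 137 bases upstream. The CCL20 promoter (chr2:227813692-227813841, plus strand) has a pair of overlapping NF-kB matches 80 and 79 bases upstream, and the VCAM1 promoter (chr1:100719592-100719741, plus strand) has NF-kB matches 77 and 62 bases upstream.
IL1A: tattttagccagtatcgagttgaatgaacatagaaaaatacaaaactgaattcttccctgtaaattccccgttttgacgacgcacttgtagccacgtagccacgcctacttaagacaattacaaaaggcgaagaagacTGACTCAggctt
CXCL8: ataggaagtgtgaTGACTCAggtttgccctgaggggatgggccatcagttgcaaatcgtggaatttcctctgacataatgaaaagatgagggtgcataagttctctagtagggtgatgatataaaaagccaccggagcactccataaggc
CCL20: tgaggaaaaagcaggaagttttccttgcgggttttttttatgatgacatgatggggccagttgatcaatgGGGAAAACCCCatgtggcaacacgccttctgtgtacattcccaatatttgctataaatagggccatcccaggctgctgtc
VCAM1: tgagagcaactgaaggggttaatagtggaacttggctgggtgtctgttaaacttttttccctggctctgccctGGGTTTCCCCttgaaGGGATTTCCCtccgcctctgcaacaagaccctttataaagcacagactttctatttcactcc

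The motifs were on both sides of the contrast. Of the 15 genes highest under 792 h, 12 have a promoter in the RefSeq table, and 3 of those held the AP-1 motif and 6 the NF-kB motif within 250 bases upstream. IL1B, LCE1F and ENPP1 held neither motif there. Of the 15 genes highest under RAF T0, 8 have one, and 2 held the AP-1 motif and 1, VCAM1, the NF-kB motif. ADAMTS19, CYTL1, ANO4, CCDC80 and KRTAP1-5 held neither. A match is a run of letters and shows no binding. The patterns are strict, so a site that departs from them is not marked. The lack of a match, as for NF-kB in the CXCL8 promoter, therefore does not show that a site is absent.

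Matrix proteases were mostly lower under RAF T0. Of 20 measured proteases and inhibitors, 15 were lower, 13 of them at 2-fold or more, 2 were higher and 3 did not pass, with a median difference of -1.6. Over all features, 29.9% were lower and 3.54% lower at 2-fold or more. MMP3, stromelysin, which cuts many matrix proteins and activates other proteases, read 6.4 and 6.3 under RAF T0 and 11.6 and 11.7 under 792 h. MMP1, the interstitial collagenase, read 9.1 and 8.5 against 12.5 and 12.5. TFPI2, a secreted protease inhibitor, read 7.8 and 7.7 against 11.8 and 11.8. All 3 were far apart between labels relative to the gap between partners. The 2 exceptions were both ADAMTS proteases that cut proteoglycans: ADAMTS1 read 10.8 and 10.8 under RAF T0 and 8.9 and 8.9 under 792 h, and ADAMTS5 differed by only 0.40 ± 0.15 (SE).

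The plasminogen and coagulation genes were mixed. Of 12 measured, 4 were higher under RAF T0 and 7 lower. THBD, thrombomodulin, a brake on thrombin, read 6.3 and 6.3 under RAF T0 and 9.8 and 9.9 under 792 h. F3, tissue factor, which starts coagulation, read 10.8 and 10.7 against 7.8 and 8.0, so that the starter and the brake of coagulation were high under different labels. PLAUR, the urokinase receptor, read 8.2 and 8.1 against 11.1 and 11.1. SERPINE2, an inhibitor of thrombin and urokinase, was higher under RAF T0, at 8.0 and 8.0 against 6.6 and 6.6.

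Most ERK targets were lower under RAF T0. Of 19 measured genes, 16 were lower, 12 of them at 2-fold or more, 2 were higher and 1 did not pass, with a median difference of -1.05. The shares over all features were 29.9% lower and 3.54% lower at 2-fold or more. SPRY4, an ERK-induced inhibitor of receptor signalling, read 7.4 and 7.4 under RAF T0 and 10.2 and 10.1 under 792 h. SPRY2, its relative, read 7.8 and 7.7 against 10.3 and 10.2. DUSP6 read 8.3 and 8.2 against 10.7 and 10.7. The 2 genes that were higher were SPRY1, at 6.9 and 6.8 against 6.3 and 6.2, and CCND1, the cyclin of early G1, at 11.8 and 11.9 against 11.3 and 11.2. Of 9 EGF-family ligands and receptors, 4 were lower, all at 2-fold or more, none was higher at the 0.05 threshold and 5 did not pass. EREG, the ligand epiregulin, read 8.6 and 8.1 against 11.9 and 12.0, and NRG1, neuregulin, 8.1 and 8.1 against 10.7 and 10.8. ERRFI1, an inducible inhibitor of the EGF receptor, read 8.2 and 8.2 against 11.5 and 11.6. MAP2K1, the gene of MEK1, which lies between RAF and ERK, differed by -0.85 ± 0.05 (SE).

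AP-1, the dimeric factor of FOS and JUN proteins that the title of the series names, showed no common direction in its genes. Of 16 genes of AP-1 and related factors, 6 were higher under RAF T0, 6 lower and 4 did not pass, and the median was -0.03, which became 0.02 after quantile normalization. JUNB read 8.2 and 8.2 under RAF T0 and 10.4 and 10.5 under 792 h. JUN was slightly higher under RAF T0, at 9.0 and 9.1 against 8.5 and 8.3. ATF3, a stress-induced factor that can pair with JUN, was higher as well, at 7.8 and 7.6 against 6.2 and 6.0. FOSL1 read 8.0 and 7.9 against 7.9 and 7.9, and FOS 7.7 and 7.6 against 8.1 and 7.9, and neither passed. FOSL2 differed by 0.15 ± 0.06, about the step of the deposited values.

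The inhibitors of cyclin-dependent kinases differed in size by gene. CDKN2B, the gene of p15, read 7.1 and 7.0 under RAF T0 and 11.6 and 11.5 under 792 h. Its neighbour CDKN2A, whose transcripts encode p16 and ARF, read 6.3 and 6.2 against 7.3 and 7.2. CDKN2A lay between 6.0 and 6.4 in 12 of the 15 groups and above that only at replicative 792 h, 1008 h and 1368 h. CDKN1A, the p53 target p21, was high under both labels, at 9.3 and 9.3 against 9.7 and 9.7, the third highest and the highest of the 15 groups. Of the 7 measured inhibitors, 4 were lower under RAF T0, 2 at 2-fold or more, and 3 did not pass. LMNB1, the lamin whose loss is a mark of senescence, was at the same low level under both labels, 5.25 as a mean, with single arrays at 5.1 and 5.4 against 5.3 and 5.2; only replicative 1008 h was lower, at 5.05. HMGA2, a chromatin protein that accumulates in senescent nuclei, was the outlier of its list, at 5.8 and 5.8 against 8.2 and 8.2. DNMT1, the maintenance DNA methyltransferase, read 8.0 and 7.9 against 8.8 and 8.8.

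Targets of p53 showed no common direction: of 19, 8 were higher, 6 lower and 5 did not pass, with a median of -0.05 that became 0.05 after quantile normalization. PLK3, a stress-responsive kinase, was the 1 member of this list at 2-fold or more, at 7.3 and 7.4 under RAF T0 and 9.6 and 9.7 under 792 h. GDF15, a stress-induced secreted factor that is counted below with the TGF-beta family, read 8.9 and 9.0 against 12.5 and 12.5.

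**Figure D3:**
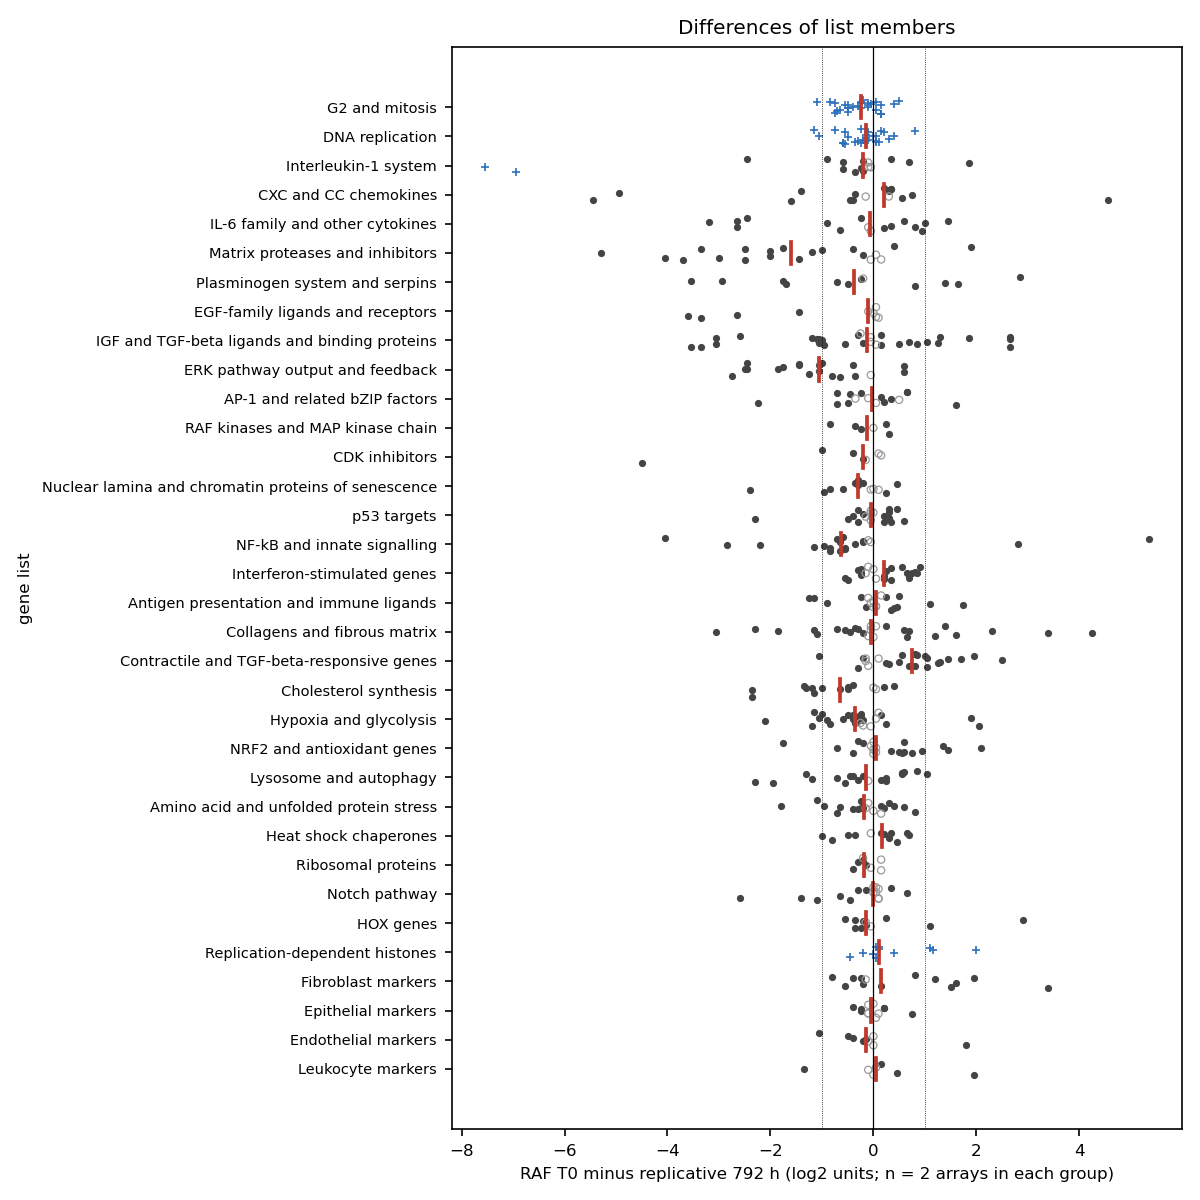
Difference of each measured list member, RAF T0 minus replicative 792 h in log2 units, by gene list (rows; 2 arrays in each group). Filled points passed an adjusted p of 0.05 and open points did not, crosses are genes used to choose the pair, shown with no test, red bars are list medians, and dotted lines mark 2-fold; points are spread vertically for legibility. Most points of the matrix protease, ERK output and cholesterol rows lie left of 0, and most of the contractile row lie right of it.

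Of 26 collagen and fibrous matrix genes, 10 were higher under RAF T0, 11 lower and 5 did not pass, with a median of -0.05, where 30.5% of all features were higher and 29.9% lower. Single members nevertheless differed by a large amount. LUM and DCN, small proteoglycans that bind collagen fibrils, were far higher under RAF T0: LUM read 8.9 and 8.8 against 4.6 and 4.6, and DCN 10.8 and 10.8 against 7.4 and 7.4. FBN2, a fibrillin of microfibrils, read 9.2 and 9.1 against 6.9 and 6.8. COL10A1, a collagen of hypertrophic cartilage, was lower, at 3.6 and 3.5 against 6.7 and 6.5. COL6A3, a chain of the beaded-filament collagen around cells, read 9.7 and 9.7 against 12.0 and 12.0, and BGN, biglycan, a close relative of DCN, 8.8 and 8.9 against 10.7 and 10.7. The related proteoglycans DCN and BGN therefore ran in opposite directions.

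Contractile and TGF-beta-responsive genes were higher under RAF T0: 17 of 24, 9 of them at 2-fold or more, against 3 lower and 4 that did not pass, with a median of 0.75. Over all features, 30.5% were higher and 4.76% higher at 2-fold or more. CCN2, connective tissue growth factor, read 12.2 and 12.2 under RAF T0 and 10.2 and 10.3 under 792 h. CCN1, its relative and like it a target of YAP, read 10.1 and 10.1 against 7.7 and 7.5. SMAD7, a feedback inhibitor of TGF-beta signalling, was the 1 member lower at 2-fold, at 6.3 and 6.4 against 7.4 and 7.4. The list stood at 0.06 ± 0.03 (SD, n = 2) under RAF T0, within the range of the other RAF-labelled groups, and at -0.61 ± 0.02 under 792 h, where only replicative 1008 h was lower.

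Growth factor genes of the IGF and TGF-beta families went both ways, 12 of 30 higher and 14 lower. TGFB2, a TGF-beta ligand, read 8.8 and 8.7 under RAF T0 and 6.1 and 6.1 under 792 h. INHBA, the subunit of activin A, ran against it within the same family, at 8.3 and 8.3 against 11.6 and 11.7. BMP2, a bone morphogenetic protein, read 7.9 and 7.7 against 10.9 and 10.8. FGF7, a fibroblast product that acts on epithelium, read 7.5 and 7.2 against 4.6 and 4.8, and ANGPT1, a ligand of the receptor TEK, 8.1 and 8.0 against 5.4 and 5.4.

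NF-kB and innate signalling genes were mostly lower under RAF T0, 16 of 20, against 2 higher and 2 that did not pass, with a median of -0.62. Over all features, 29.9% were lower and 30.5% higher. PTGS2, cyclooxygenase-2, read 5.7 and 5.4 under RAF T0 and 9.6 and 9.6 under 792 h. NFKBIA, the inhibitor that NF-kB itself induces, read 8.2 and 8.1 against 10.3 and 10.4. ICAM1, an adhesion ligand for leukocyte integrins, read 8.9 and 8.9 against 11.7 and 11.8. VCAM1, the other main adhesion ligand and like ICAM1 an NF-kB target, ran the opposite way and had the largest positive difference of all named genes, at 9.7 and 9.5 against 4.2 and 4.3. TLR3, a receptor of double-stranded RNA, was also higher under RAF T0, at 6.2 and 5.6 against 3.1 and 3.1. Of 22 interferon-stimulated genes, 12 were higher, 6 lower and 4 did not pass, none at 2-fold or more. IFIT2, an antiviral RNA-binding protein, was the largest, at 5.2 and 5.3 against 4.1 and 4.6.

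Of 19 genes of antigen presentation and immune ligands, 7 were higher and 5 lower, near the 30.5% and 29.9% of all features. CD47, the signal that restrains phagocytosis, read 10.0 and 9.8 under RAF T0 and 8.2 and 8.1 under 792 h. The checkpoint ligands differed in direction: PDCD1LG2 was higher under RAF T0, at 9.2 and 9.0 against 8.0 and 8.0, and CD274 lower, at 5.9 and 5.5 against 6.9 and 7.0. ULBP2, a ligand of the killer-cell receptor NKG2D, was lower, at 6.5 and 6.7 against 7.8 and 7.7.

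In metabolism, cholesterol synthesis was lower under RAF T0 at 11 of 15 genes, 7 at 2-fold or more, with 2 higher and a median of -0.65. The shares over all features were 29.9% lower and 3.54% lower at 2-fold or more. INSIG1, which is induced with the pathway and retains its activator SCAP, read 6.5 and 6.7 under RAF T0 and 9.0 and 8.9 under 792 h, and MSMO1, a sterol oxidase, 7.3 and 7.2 against 9.7 and 9.5. The list had its lowest level of the 15 groups under RAF T0, -0.39 ± 0.01 (SD, n = 2). Of 28 hypoxia and glycolysis genes, 19 were lower, 4 higher and 5 did not pass, where 29.9% of all features were lower. Members ran both ways: the glycolytic enzymes HK2 and TPI1 differed by -1.20 ± 0.07 and -1.15 ± 0.06 (SE), while SLC2A1, the glucose transporter GLUT1, read 10.9 and 11 against 9.0 and 9.1. ADM, the hypoxia-induced peptide adrenomedullin, read 9.4 and 9.5 against 7.4 and 7.4.

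The NRF2 and antioxidant list had its highest level of the 15 groups under RAF T0, 0.26 ± 0.01 (SD, n = 2), with 10 of 21 genes higher and 5 lower than under 792 h. GPX3, a secreted glutathione peroxidase, read 8.0 and 7.9 under RAF T0 and 5.8 and 5.9 under 792 h. AKR1C1 and AKR1C2 differed by 1.45 and 1.35, but these aldo-keto reductases are near-identical in sequence and their values may not be separate. MT1X, a metallothionein, was lower, at 6.9 and 6.9 against 8.4 and 8.9. Of 20 lysosome genes, 9 were higher and 10 lower: CTSL, cathepsin L, read 9.1 and 9.2 against 11.1 and 11.1, and NPC1, which exports cholesterol from lysosomes, 8.2 and 8.1 against 9.5 and 9.4. CTSH, cathepsin H, was higher, at 6.5 and 6.6 against 5.5 and 5.5.

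Smaller differences were seen in the stress and translation lists. Of 20 genes of amino acid and unfolded protein stress, 6 were higher and 10 lower, and SLC7A5, a transporter of large neutral amino acids, was the largest, at 7.5 and 7.6 against 9.3 and 9.4. Of 12 chaperones, 7 were higher and 4 lower. Of 8 ribosomal protein genes, 4 were lower and none was higher at the 0.05 threshold, with RPL18 the largest at -0.40 ± 0.06 (SE). Of 16 Notch pathway genes, 7 were lower, 2 were higher and 7 did not pass, with a median of 0. The targets HEY1 and HES1 were among the lower, HEY1 at 4.4 and 4.3 under RAF T0 and 7.0 and 6.9 under 792 h, and HES1 at 5.6 and 5.6 against 7.2 and 6.8. Among 11 HOX genes, which record the position of a fibroblast in the body, HOXC8 stood out, at 7.6 and 7.7 against 4.8 and 4.7.

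Markers of other cell types were checked on the same arrays, where 30.5% of all features were higher and 29.9% lower. Of 12 epithelial markers, 3 were higher, 3 lower and none reached 2-fold, and the list level was -0.08 under both labels. KRT8 has 2 features that passed in opposite directions. Of 9 endothelial markers, 1 was higher and 5 lower: TEK, the angiopoietin receptor, read 8.6 and 8.5 under RAF T0 and 6.7 and 6.8 under 792 h, and TIE1, its partner, 5.9 and 5.9 against 7.0 and 6.9. PECAM1, a defining endothelial marker, was dim under both, at 4.7 and 4.6 against 5.1 and 5.0. Of 7 leukocyte markers, 3 were higher and 1 lower, and the list level was 0.19 ± 0.03 (SD, n = 2) under RAF T0, the highest of the 15 groups, against 0.02 ± 0.00 under 792 h. CD14, a co-receptor for bacterial lipopolysaccharide, read 7.5 and 7.5 against 5.5 and 5.6, and CD68, a lysosomal protein of macrophages that fibroblasts also make, 9.5 and 9.6 against 10.9 and 10.9. The part of other cells in the results was not tested; in bulk RNA, more cells of a type and more RNA per cell cannot be told apart. Of 13 fibroblast markers, 7 were higher, 5 at 2-fold or more, and 5 lower. THY1, a surface glycoprotein of fibroblasts, read 9.9 and 10.0 against 7.9 and 8.1, and TBX5, a factor of lung mesenchyme, 8.8 and 8.9 against 7.2 and 7.3, while PDGFRB was lower, at 9.0 and 9.1 against 9.9 and 9.8.

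**Figure D4:**
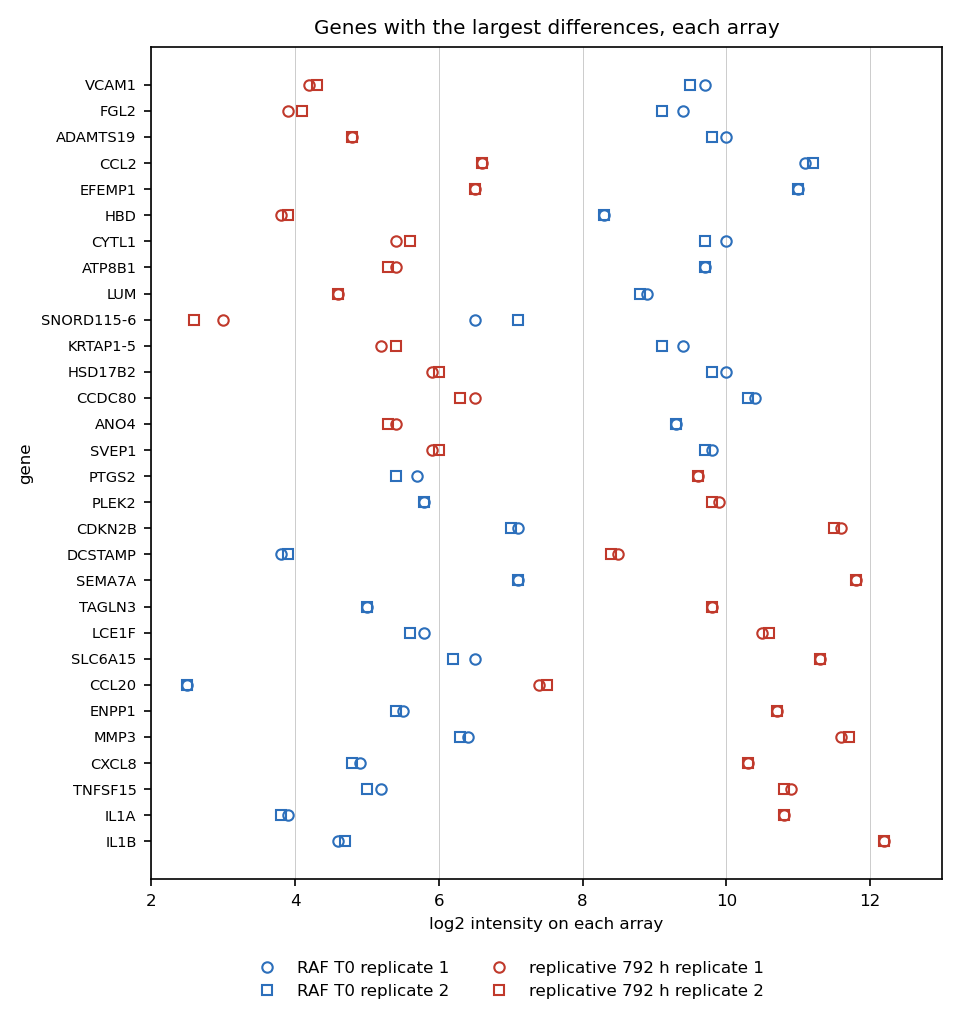
Log2 intensity on each of the 4 arrays for the 30 named genes with the largest differences, ordered by difference; circles are replicate 1 and squares replicate 2, blue for RAF T0 and red for replicative 792 h. Partners lie within 0.6 of each other for every gene shown, and groups lie at least 3.5 apart.

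The genes of largest difference include several outside these lists. Higher under RAF T0 were FGL2, a fibrinogen-like secreted protein, at 9.4 and 9.1 against 3.9 and 4.1, and ADAMTS19, a secreted metalloprotease, at 10.0 and 9.8 against 4.8 and 4.8. EFEMP1, the matrix protein fibulin-3, read 11 on both arrays against 6.5 and 6.5. SVEP1 and CCDC80, also secreted matrix proteins, differed by 3.80 and 3.95. These 5 genes add to LUM and DCN as secreted products that were bright under RAF T0. HSD17B2, which inactivates oestradiol and testosterone, read 10.0 and 9.8 against 5.9 and 6.0. ATP8B1, a phospholipid flippase, ANO4, a member of the anoctamin family, and CYTL1, a small secreted protein, differed by 4.35, 3.95 and 4.35. HBD, the delta chain of haemoglobin, read 8.3 and 8.3 against 3.8 and 3.9.

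On the other side, TNFSF15, a cytokine of the TNF family, read 5.2 and 5.0 under RAF T0 and 10.9 and 10.8 under 792 h. ENPP1, an enzyme that makes extracellular pyrophosphate, read 5.5 and 5.4 against 10.7 and 10.7. SLC6A15, a transporter of neutral amino acids, read 6.5 and 6.2 against 11.3 and 11.3. Genes known from other tissues were among these: LCE1F, of the cornified envelope of skin, differed by -4.85, TAGLN3, a transgelin known from neurons, by -4.80, and DCSTAMP, needed for the fusion of osteoclasts, by -4.60. SEMA7A, a membrane-anchored semaphorin, read 7.1 and 7.1 against 11.8 and 11.8, and PLEK2, a pleckstrin of the cytoskeleton, 5.8 and 5.8 against 9.9 and 9.8.

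The positions of these genes within the series are given as a description. Of the 15 highest genes under RAF T0, 12 had both RAF T0 arrays above all other 28, and of the 15 highest under 792 h, 10 had both 792 h arrays above all others. The genes were picked by their difference on these same arrays, which favours such positions. IL1A and IL1B, by which the pair was chosen, are among the 10. EFEMP1, LUM and ADAMTS19 were at once highest of all under RAF T0 and lowest of all under 792 h. Over all features, both RAF T0 arrays were the highest at 1125 and the lowest at 788, and both 792 h arrays the highest at 1575 and the lowest at 1035. These were the largest such counts of the 15 groups. VCAM1 had group means from 7.05 to 9.60 in the 6 RAF-labelled groups, of 8.2, 7.8 and 8.1 at replicative 144 h, 264 h and 432 h, and from 3.95 to 5.0 at replicative T0 and the 5 replicative times from 624 h on.

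The next labels of each course share no array with the pair. They are neighbouring times of the same courses, taken by label order with earlier results of these data known. Shared calls are therefore not independent support. In RAF 12 h minus replicative 1008 h, 30458 features passed (58.2%), and in RAF 24 h minus replicative 1368 h, 30107 (57.5%). Of the pair's calls, 22614 passed in the same direction in the first of these, 71.5% of the pair's calls and 74.2% of the other's, and 1154 in the opposite direction. The second shared 23510 calls in the same direction, 74.4% of the pair's and 78.1% of its own, and 462 in the opposite direction. At 2-fold or more, 10 features were called in opposite directions by the pair and the first, out of 4344 and 3968 (7.58% of all features), and 1 by the pair and the second, out of 4344 and 3685 (7.04%).

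The mitotic genes differed strongly in the first of these comparisons. The 29 G2 and mitosis genes had a median difference of 2.75 in RAF 12 h minus replicative 1008 h. In RAF 24 h minus replicative 1368 h their median was -0.45. The 11 replication-dependent histones had medians of 1.85 in the first and -0.05 in the second. MKI67 differed by 3.70 in the first comparison and by -0.35 in the second. Mitotic levels were known when the pair was chosen, so these values are a description only.

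Several of the genes of largest difference had the same sign in both. IL1B differed by -6.70 and -6.25, and IL1A by -6.30 and -5.55. CXCL8 differed by -3.75 (limma adjusted p = 1.68e-16) and -3.15 (limma adjusted p = 2.7e-15), and MMP3 by -6.50 and -3.45. CDKN2B differed by -4.60 and -4.25, and VCAM1 by 2.90 (limma adjusted p = 9.38e-11) and 4.05 (limma adjusted p = 9.84e-13). Of the 19 ERK output genes, 13 were lower and 3 higher in the first comparison, and 16 lower and 1 higher in the second, with medians of -1.10 and -1.05. Of the 20 matrix proteases and inhibitors, 15 and 14 were lower, where 28.2% and 27.6% of all features were lower. Contractile genes were higher at 15 of 24 in both, with medians of 0.85 and 0.75, where 30% and 29.9% of all features were higher. IL6 changed sign: it differed by -0.90 in the pair, by 0.65 in the first comparison (limma adjusted p = 6.17e-05) and by 0.95 in the second (limma adjusted p = 7.76e-07).

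**Figure D5:**
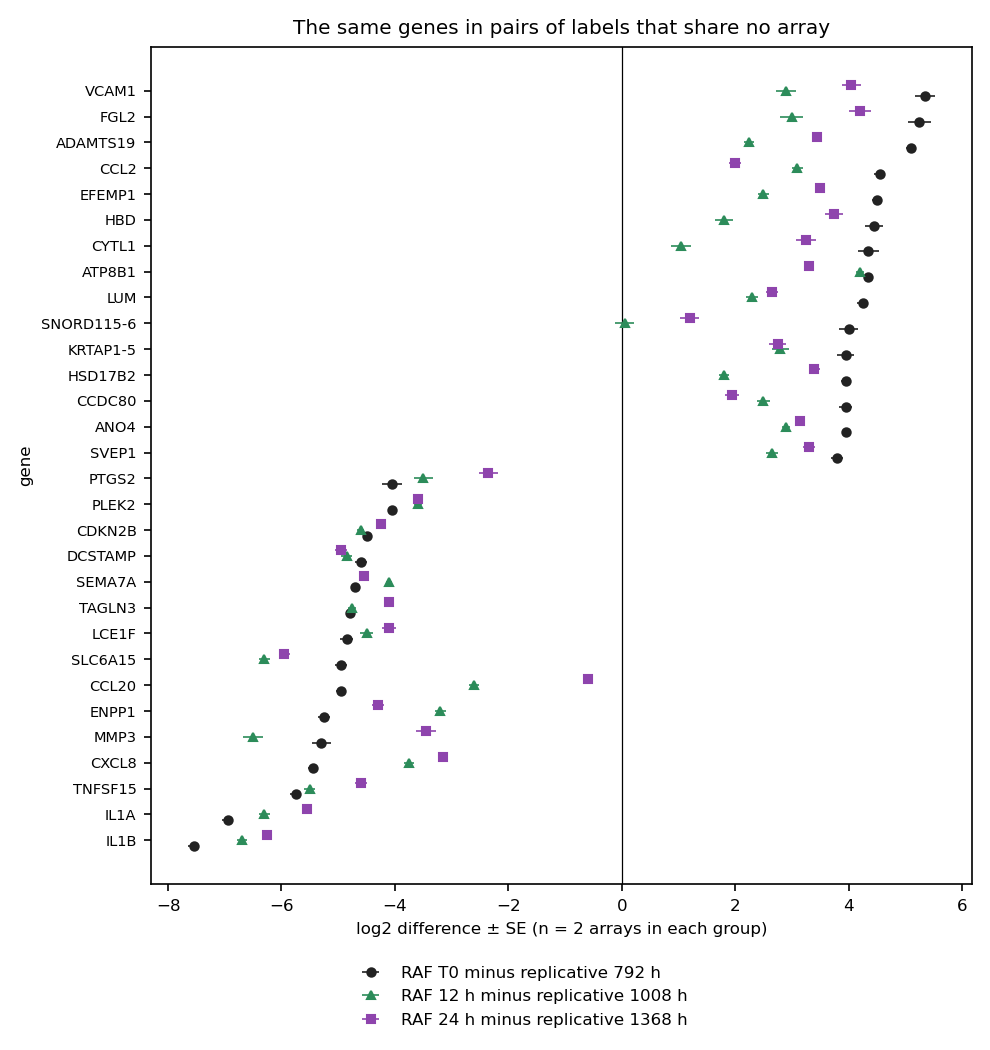
Difference ± SE in log2 units of the 30 genes of largest difference, for RAF T0 minus replicative 792 h (black circles), RAF 12 h minus replicative 1008 h (green triangles) and RAF 24 h minus replicative 1368 h (purple squares), each from 2 arrays in either group. All 30 genes keep their sign in the 3 comparisons, but SNORD115-6 is near 0 in the second of them and CCL20 is at -0.60 in the third. IL1A and IL1B, by which the pair was chosen, are among the 30 and are a description only.

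A test of the difference between the pair and the first of these comparisons was passed by 9098 features (17.4%), 1125 of them with a difference of at least 2-fold (2.15%). Of the 24 contractile genes, 12 differed towards lower and 5 towards higher values in the pair. Of the 15 cholesterol genes, 10 differed towards lower values, against 9% of all features. Of the 21 antioxidant genes, 13 differed towards higher values, as did 13 of the 20 lysosome genes, against 8.39% of all features. Both lists had their lowest level of the 15 groups under RAF 12 h, at -0.31 and -0.29. The antioxidant median was 0.05 in the pair, -0.40 in the first comparison and 0.15 in the second. For the lysosome list these medians were -0.15, -0.25 and 0. The difference is thus not shown to be particular to the pair. CDKN2B, TNFSF15, TAGLN3 and ATP8B1, which were among the largest differences of the pair, did not pass this test, with estimates of 0.10, -0.25, -0.05 and 0.15; a missed threshold does not show that their differences are equal.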

How the data were processed

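The authors deposited processed values for 30 arrays, with a lowest value of -1.6 and a highest of 14, a range taken here as log2 intensity; their log base, summarisation and normalization are not stated in any source used here. Per the labels' protocols, a column kit extracted the RNA and the WT PLUS kit labelled it. Of the 52329 features, 21055 carry exactly 1 symbol in the probe table, 1406 several and 29868 none; only the first were named, as 19912 genes, each represented by its brightest feature. Groups came from the labels alone. A limma 3.58.1 model (R 4.3.3; lmFit, eBayes) of all 30 arrays with 15 groups and 15 residual degrees of freedom gave each contrast, two-sided, adjusted by Benjamini-Hochberg over all features. The calculation was tested on simulated data. The pair was compared with the next labels of each course, which share no array with it.

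The arrays, the 34 gene lists (572 of 677 listed entries were measured) and the genes always named were chosen with earlier results of these data known. Otherwise the text names, per list, up to 3 genes of largest difference in each direction past the test, and the 15 largest in each direction over all genes. The alternatives tried were a fit of only the arrays compared, a replicate block, leaving out each array, quantile normalization, a mean of at least 5, an intensity trend with robust estimation, a minimum of 1 log2 unit, and the mean of a gene's features. Replicate numbers were not used to pair samples in the main fit. The differences of replicate 1 minus 2 correlated at -0.0413 across features between RAF T0 and 792 h. Over the 105 pairs of groups this ranged from -0.277 to 0.358, which does not settle whether samples were paired. Scanner files were not used here, so background was not called, and precision is limited by 2 arrays in a group.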

Additional observations from a re-analysis of the deposited data

Results flagged for a closer look

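For 41 genes named here, the difference RAF T0 minus replicative 792 h differed from RAF 12 h minus replicative 1008 h by at least 1 log2 unit, with an adjusted p under 0.05 in the limma test of that difference over all features. The values below are the first difference minus the second, in log2 units. The first comparison is the one the pair was chosen on, so these are differences to look at again and not independent results. The genes of the mitosis, DNA replication and histone lists, IL1A and IL1B were left out. LMNB1 and DNMT1 are on another list and were kept. The mean of LMNB1 was highest under RAF 12 h, at 8.15, where MKI67 was also at the top of its range.

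In 28 genes the value was positive. SNORD115-6 had 3.95, since it differed in the pair by 4.0 and in the other comparison by 0.05, CYTL1 had 3.30 and TLR3 had 3.15. TLR3 and the myeloid marker CD14, at 2.05, were higher under RAF T0 in the pair and did not pass in the other comparison. Among genes high under RAF T0, ADAMTS19 had 2.85, HBD 2.65, VCAM1 2.45, HOXC8 2.40, FGL2 2.25, HSD17B2 2.15, EFEMP1 2.00, LUM 1.95, CCDC80 1.45, CCL2 1.45, SVEP1 1.15 and ANO4 1.05, each with the same sign in both comparisons. AKR1C1 at 1.8 and AKR1C2 at 1.75 changed sign between them. GPX3 had 1.75, ADAMTS1 1.70, ANGPT1 1.60, SERPINE2 1.55 and TGFB2 1.05. Among genes low under RAF T0 the gap was the smaller in the pair for EREG at 2.00, SLC6A15 at 1.35, NPC1 at 1.25, MMP3 at 1.20 and TFPI2 at 1.

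In 13 genes the value was negative. LMNB1 had -3.10, being level in the pair and higher under RAF 12 h than under replicative 1008 h by 3.10. CCL20 had -2.35, ENPP1 -2.05, CXCL8 -1.70, NFKBIA -1.55, COL6A3 -1.5, CSF3 -1.45, INSIG1 -1.30 and BGN -1.25, all lower under the RAF label in both comparisons and further apart in the pair. IL6 at -1.55 changed sign. CD274 had -1.45 and CXCL1 -1.35, and neither passed in the other comparison. DNMT1 had -1.20. The mitotic level differs between RAF T0 and RAF 12 h, at -1.34 and 1.38 on the list of G2 and mitosis genes, and its part in these differences was not tested.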

How the results depend on the processing

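The pair's count of calls was 27866 at most and 26997 at least when 1 array was left out, with 13635 to 14273 higher, 13361 to 13593 lower and 4340 to 4570 at 2-fold or more. The other ranges on leaving out 1 array were 25901 to 26268 for RAF 12 h minus replicative 1008 h, 25382 to 26125 for RAF 24 h minus replicative 1368 h and 7431 to 7985 for the difference. Requiring at least 1 log2 unit left 4344, 3968, 3685 and 1125 features in these 4 tests. Testing only features with a mean of at least 5 left 9948 higher and 2592 at 2-fold or more in the pair, 10056 and 2506 in the first comparison, and 9511 and 2271 in the second; fewer features are tested there by construction. With the replicate block, the pair had 31768 calls, and the pairing changed no named gene's call. No direction of a named gene reversed. The naming rules gave 209 genes, not all of which appear in the text. IL1A, IL1B and cell cycle genes are among them, as a description only. Of the 209, 16 lost their call with only the 4 arrays in the fit, which leaves fewer arrays. Quantile normalization left the median of all features at 0 and turned the sign of the medians of the AP-1 and p53 lists, as given above. Over the 567 distinct genes of all lists, 169 were higher and 262 lower, where 30.5% and 29.9% of all features were. With quantile normalization these totals were 169 and 255, and with the mean of a gene's features 168 and 265. They include IL1A, IL1B and the cell cycle lists, by which the pair was chosen, and serve only to compare the settings. Groups of 2 limit every test, and nothing here shows whether a dim gene is above background.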

Other observations

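Small nucleolar RNAs were not on any list and were looked at after their values were seen. These RNAs guide the chemical modification of other RNAs, and the SNORD115 and SNORD116 families lie in tandem in an imprinted region of chromosome 15. SNORD115-6 read 6.5 and 7.1 under RAF T0 and 3.0 and 2.6 under replicative 792 h. Of 14 measured members of its family, 13 were higher under RAF T0 at 2-fold or more, with a median difference of 2.70 log2 units and differences from -0.80 to 4.0. The family's median level was 5.20 under RAF T0 and 2.47 under 792 h, and the highest in any other group was 3.70, under replicative 264 h. In 13 of the 14, both RAF T0 arrays were the highest of the series. The members resemble each other in sequence, so that their probes may read the same RNA.

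The neighbouring SNORD116 family was higher at 15 of 18 members at 2-fold or more, with a median of 1.77, and the SNORD114 family, from another imprinted cluster, at 22 of 30, with a median of 1.55. The median level of SNORD114 was 6.08 under RAF T0 and higher, 6.68, under RAF 48 h, and both RAF T0 arrays were the highest of the series in 10 of its 30 members and in 12 of the 18 of SNORD116. In RAF 12 h minus replicative 1008 h the medians were -0.12 for SNORD115, 0.55 for SNORD116 and 0.77 for SNORD114, and in RAF 24 h minus replicative 1368 h they were 0.75, 1.4 and 1.08. Over all 215 genes annotated as small nucleolar RNAs, 101 (47%) were higher under RAF T0 at 2-fold or more and 5 (2.33%) lower, against 4.19% and 4.08% of 15654 protein-coding genes. Many of these features are dim.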
